A study of Arabidopsis thaliana with 24 samples.

Results

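The comparison followed roots of Arabidopsis thaliana through the first day without inorganic phosphate (Pi). It rests on 6 of the 24 arrays of the study, 3 from roots taken at 0 h and 3 from roots taken 24 h after the transfer, all of them labelled as the arm without Pi and paired by the number of the experiment. The plants were grown in aerated nutrient solution, were 30 days old, had been supplied with 1.5 mM Pi until then, in solution last renewed 24 h earlier, and were rinsed in EDTA before they were moved to solution with 0 mM Pi. The same steps were applied to the other arm, which stayed at 1.5 mM Pi and whose 0 h and 24 h arrays (6 in all) were used here to measure the change over the same day with Pi present. The transfer took place 1 h into a light period of 10 h, so that 0 h and 24 h fall at the same hour of the day. About 20 plants were taken at each time, and no genotype is named in the labels. The arms are called minus Pi and plus Pi roots.

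Plants read their internal Pi status through SPX proteins, which hold back the transcription factor PHR1 while Pi is plentiful. When Pi runs short, PHR1 and its relatives are released and switch on genes for Pi uptake, for recovery of Pi from organic compounds, and for the replacement of phospholipids by lipids without phosphorus. Root tips also sense low Pi locally, through the oxidase LPR1 and the ATPase PDR2, and the growth of the root and of its hairs is adjusted.

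The array carries probe sets, each of which reports the transcripts of 1 gene or of a few similar genes. Tests covered 22746 probe sets, and 17132 of them could be tied to exactly 1 gene. Values are on the log2 scale on which they were deposited, so that a difference of 1 is a 2-fold change, and levels of different genes are not compared. The array medians lay between 6.345 and 6.454, and replicate arrays correlated with r of 0.9503 to 0.992 across probe sets. In a principal component analysis of the 6 arrays, component 1 took up 54.6% of the variance and component 2 took up 27.8%. Differences between experiments made up 62.4% of component 1 and 38.9% of component 2, and differences between times 34.6% and 59%. A change is given as the mean of 3 differences within an experiment, with the standard error (SE) of a limma fit that has a term for the experiment, and is called where its Benjamini-Hochberg adjusted p is under 0.05. The number of arrays limits the precision. An exact two-sided permutation test of 3 arrays against 3 that ignores the pairs cannot go below p = 0.1. A test that keeps the 3 pairs has a higher limit still.

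Between 0 h and 24 h, 2383 of the 22746 probe sets changed in minus Pi roots, which is 10.5% of those tested. Of these 1107 rose (4.87%) and 1276 fell (5.61%), and 2373 moved the same way in 3 of 3 experiments. Changes of 2-fold or more were more often falls, with 225 rises and 446 falls. The 0 h and 24 h arrays did not overlap for 1741 of the called probe sets, and for 18.7% of all probe sets. The same test called 230 probe sets in plus Pi roots (1.01%), of which 15 rose (0.0659%) and 215 fell (0.945%). The arms share no array, and 182 probe sets were called in both, 177 of them lower and 4 higher in both. They make up 7.64% of the calls in minus Pi roots and 79.1% of the calls in plus Pi roots. The median change of all probe sets was 0.01 in minus Pi and 0.02 in plus Pi roots. Without the term for the experiment 629 probe sets were called in minus Pi roots (231 higher and 398 lower, all among the 2383) and 113 in plus Pi roots. Without the minus Pi 0 h array of experiment 1 or 2 the count in minus Pi roots was 1291 or 1135, and it was 988 without the minus Pi 24 h array of experiment 2. The minus Pi 24 h array of experiment 2 is 1 of 3 in the study whose number in the description lies outside the run of its experiment. The count of 230 in plus Pi roots was 114 or 109 without the 0 h or 24 h array of experiment 1 of that arm, and 147 or 121 without that of experiment 2.

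The difference between the arms was tested directly, as the change in minus Pi roots less the change in plus Pi roots. It passed for 440 probe sets (1.93%), 189 with the higher (0.831%) and 251 with the lower change (1.1%) in minus Pi roots. Of these, 424 were also called within minus Pi roots, 183 as rises and 241 as falls. At 0 h itself no probe set differed between the arms by limma (0 of 22746), and 920 had an unadjusted p under 0.05. Without the term for the experiment the difference passed for 29 probe sets, and with the experiment as a random effect for 267. Leaving out 1 of the 12 arrays gave between 68 and 621, the lowest without the minus Pi 24 h array of experiment 2, and the count was 80 without the minus Pi 0 h array of that experiment and 98 without the plus Pi 0 h array of experiment 3. It was 168 without the minus Pi 0 h array of experiment 1, 196 without the plus Pi 0 h array of experiment 2, and 174, 201 or 189 without the plus Pi 24 h array of experiment 1, 2 or 3.

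The genes that rose most included known markers of Pi shortage. SPX1, one of the Pi-binding repressors of PHR1, stood at 6.17, 6.67 and 7.42 in the minus Pi roots of experiments 1 to 3 at 0 h and at 10.13, 9.90 and 10.02 at 24 h. All 24 h arrays lay above all 0 h arrays, and the 24 h arrays lay closer together than the 0 h arrays. The rise was 3.26 (SE 0.34, adjusted p = 1.9e-05), or 9.61-fold. With Pi, SPX1 stood at 7.48, 6.67 and 7.30 at 0 h and at 7.03, 6.87 and 6.66 at 24 h, and the changes of the arms differed by 3.56 (adjusted p = 0.00211). OCT1, a gene of the organic cation transporter family, stood at 4.62, 5.04 and 6.89 at 0 h and at 10.16, 9.21 and 8.72 at 24 h in minus Pi roots. Its groups lay apart too, but the within-experiment rises ran from 5.54 in experiment 1 down to 1.83 in experiment 3, where the 0 h array was highest. The mean rise of 3.85 (SE 0.54, adjusted p = 0.000272), or 14.4-fold, was the largest among called probe sets with 1 gene. The difference from plus Pi roots was 3.95 (adjusted p = 0.0171), and without the minus Pi 0 h array of experiment 2 its adjusted p was 0.0662.

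**Figure D1:**
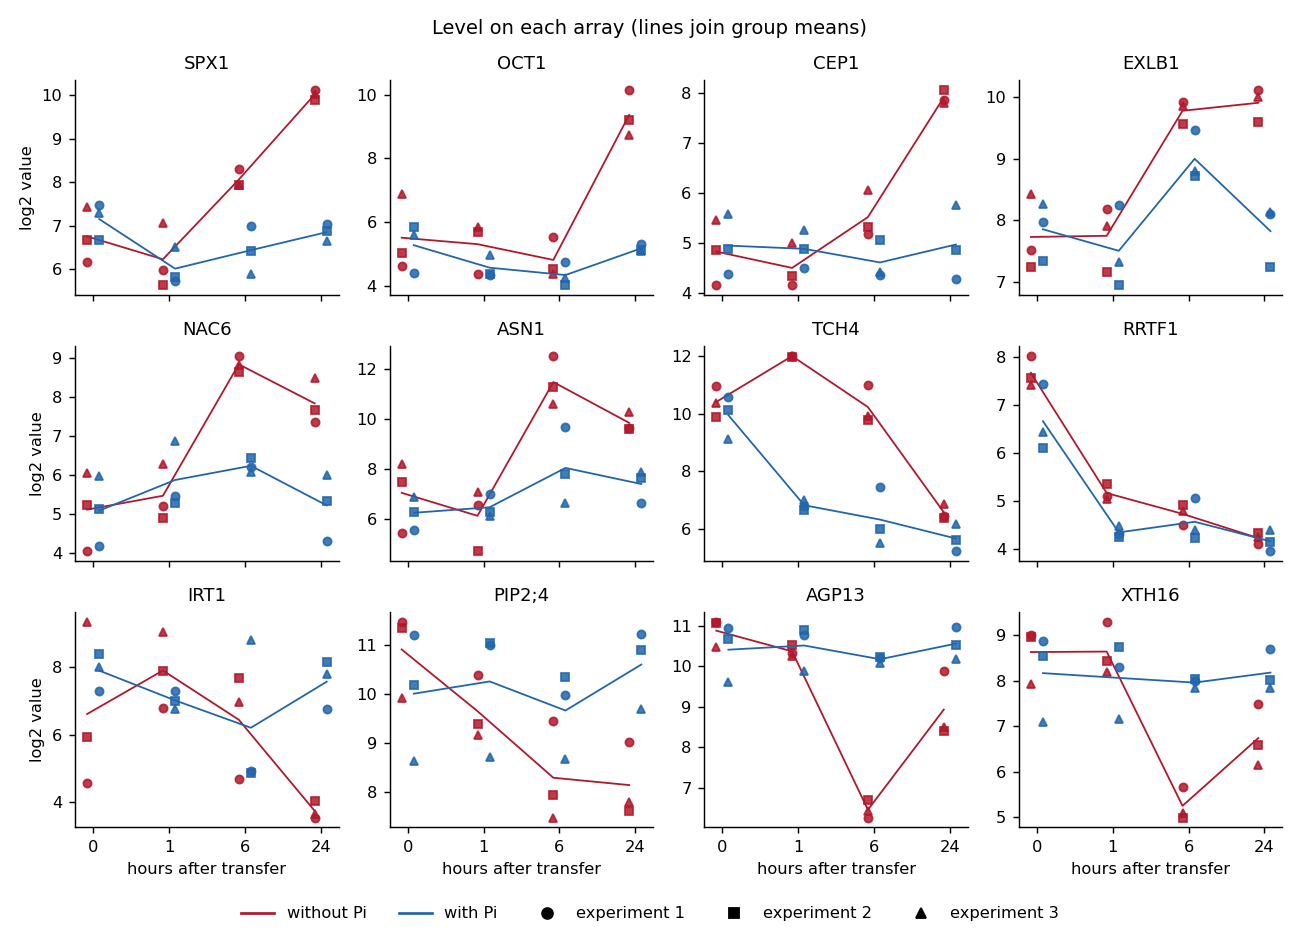
Log2 level of 12 genes on each of the 24 arrays (y axis) by hours after transfer (x axis, evenly spaced categories). Red is without and blue with Pi, circles, squares and triangles are experiments 1, 2 and 3, and lines join the means of 3 arrays. SPX1 rose from 6.75 to 10.02 without Pi, TCH4 fell in both arms, and AGP13 and XTH16 were lowest at 6 h without Pi.

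The path between both times differed among the rising genes, as the plot of levels by hour shows. SPX1 stood at 6.23 ± 0.745 (SD, n = 3) at 1 h and 8.06 ± 0.217 at 6 h, between its 0 h and 24 h levels at the later time. OCT1 was at 4.82 ± 0.632 at 6 h, no higher than its 0 h mean of 5.52 ± 1.21, and reached 9.36 ± 0.732 only in the 24 h arrays. G3Pp1, a glycerol-3-phosphate permease gene known to respond to Pi shortage, behaved likewise, with a mean of 7.46 ± 1.42 at 6 h and 10.42 ± 0.297 at 24 h. These values at 1 and 6 h are described only, since no test was run on them.

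Of 31 listed genes of Pi sensing and transport, 16 were measured by a probe set naming only that gene. Of these 4 rose and 2 fell, against 4.87% and 5.61% of all probe sets, with a list median of 0.39 in minus Pi and -0.08 in plus Pi roots. The same shares are the background of each list count below. G3Pp1 stood at 7.18, 7.86 and 9.62 at 0 h and at 10.08, 10.63 and 10.56 at 24 h. Its groups did not overlap, and it rose by 2.2 (SE 0.48, adjusted p = 0.00801). It was no longer called without the minus Pi 0 h array of experiment 2 (adjusted p = 0.0572) or without the term for the experiment (adjusted p = 0.26), and its difference from plus Pi roots was 2.62 (adjusted p = 0.058). ZAT6, a zinc finger gene of the Pi response that is also induced by stress, fell by 1.87 on the log2 scale (SE 0.37, adjusted p = 0.00439) and changed by -1.24 in plus Pi roots (adjusted p = 0.221). The fourth riser and the other gene that fell were outside the naming rule and are given because they complete the count. LPR1, the oxidase of local Pi sensing, rose by 0.81 (adjusted p = 0.00352), and its change differed from that in plus Pi roots by 0.90 (adjusted p = 0.0479). SPX4, another SPX repressor, fell by 0.50 on the log2 scale (adjusted p = 0.00786). PHR1 itself stood at 7.18, 7.18 and 7.11 at 0 h and 7.09, 7.32 and 7.35 at 24 h, a difference of 0.09 (SE 0.09, adjusted p = 0.581).

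Few genes that recover Pi or replace phospholipids were measured. Of 7 scavenging genes 2 rose and none fell, against 4.87% and 5.61% of all probe sets. Purple acid phosphatase AT1G13750 (PAP1 in the list) rose by 0.64 (SE 0.12, adjusted p = 0.00331), with a difference of 0.76 from plus Pi roots (adjusted p = 0.0361). That difference lost its call when any of 10 of the 12 arrays was left out (adjusted p up to 0.109). It was not called without the term for the experiment either (adjusted p = 0.303). PAP22, of the same enzyme family, rose by 0.90 (SE 0.25, adjusted p = 0.0271), a call lost when any of 5 of the 6 arrays was left out (adjusted p = 0.115 without the minus Pi 0 h array of experiment 1). Of 5 lipid genes only SQD1 passed the test, the synthase of the sulfoquinovose head group of sulfolipid. SQD1 stood at 7.36, 7.33 and 7.42 at 0 h and at 8.69, 8.37 and 8.24 at 24 h. These groups were far apart for their spread, and the rise of 1.06 (SE 0.12, adjusted p = 3.5e-05) differed from the change in plus Pi roots by 1.03 (adjusted p = 0.00776). The list medians were -0.18 for scavenging and 0.10 for lipid genes, against 0.01 for all probe sets.

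**Figure D2:**
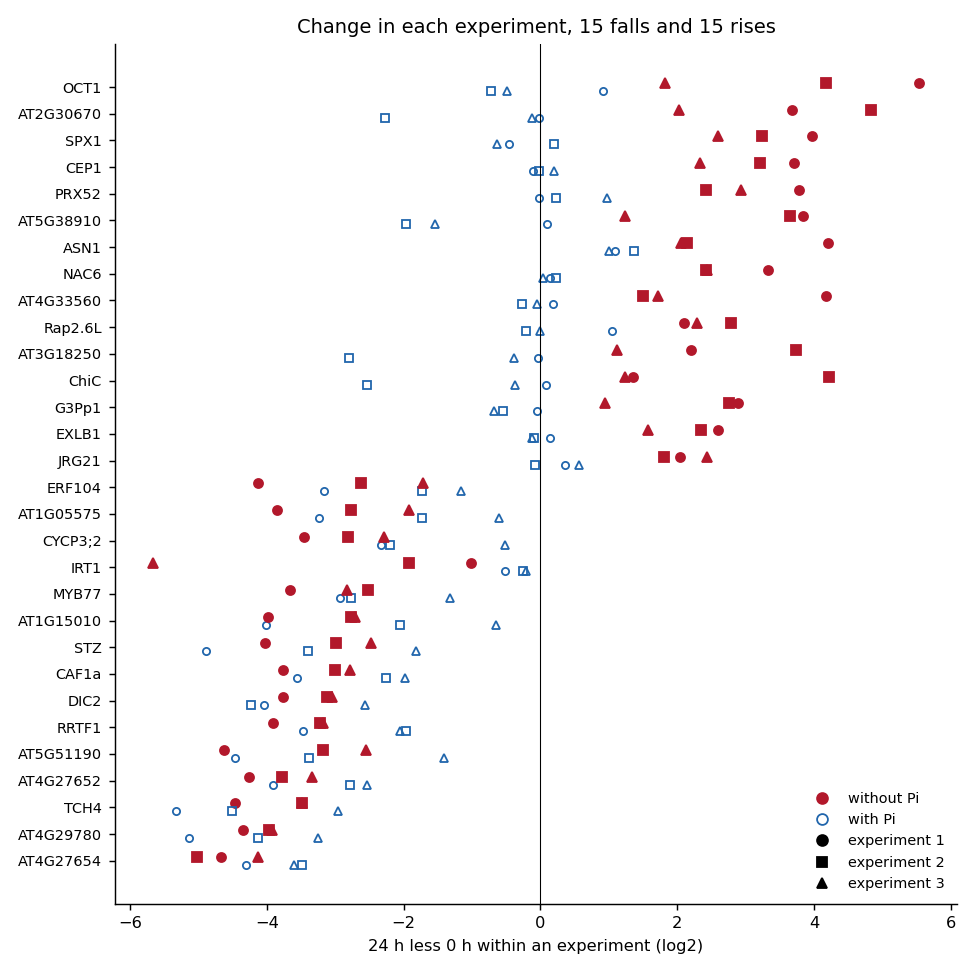
Change from 0 h to 24 h within each experiment (x axis, log2) for the 15 largest rises and the 15 largest falls called in minus Pi roots (y axis). Filled red symbols are minus Pi and open blue symbols plus Pi roots, with 1 symbol per experiment. The rises lay near 0 in most plus Pi experiments, while most of the falls were shared by plus Pi roots, and IRT1 had the widest spread of the falls.

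Beyond Pi genes, the 15 largest rises held genes of protein breakdown, the cell wall and stress. CEP1, a cysteine endopeptidase known from cells that undergo programmed death, stood at 4.16, 4.86 and 5.46 at 0 h and at 7.87, 8.07 and 7.80 at 24 h. The 24 h arrays lay close together, and the plus Pi arrays at 24 h stood at 4.27 to 5.77. CEP1 rose by 3.09 (SE 0.25, adjusted p = 1.49e-06), and by 3.06 more than in plus Pi roots (adjusted p = 0.000914). NAC6, also known as ORE1, a NAC factor of leaf senescence, rose by 2.73 (SE 0.38, adjusted p = 0.000216) from 4.03, 5.23 and 6.05 to 7.36, 7.66 and 8.49. Its level was higher still at 6 h, at 8.84 ± 0.208. EXLB1, an expansin-like gene, stood at 7.52, 7.24 and 8.42 at 0 h and at 10.12, 9.59 and 10.00 at 24 h, with no overlap. It rose by 2.17 (SE 0.23, adjusted p = 2.23e-05), and by 2.2 more than in plus Pi roots (adjusted p = 0.00568).

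PRX52, a class III peroxidase gene, rose by 3.05 (SE 0.67, adjusted p = 0.00804), and its 24 h arrays lay close together at 9.04, 9.24 and 9.16 after 5.27, 6.82 and 6.22 at 0 h. Its difference from plus Pi roots was 2.65 (adjusted p = 0.158). JRG21, a dioxygenase gene known to respond to jasmonate, rose by 2.09 (SE 0.25, adjusted p = 6.79e-05), and Rap2.6L, an ERF family transcription factor gene, by 2.39 (SE 0.40, adjusted p = 0.00124). ASN1, an asparagine synthetase gene of dark and sugar starvation, is described with the carbon genes. AT4G33560 rose by 2.46 (adjusted p = 0.0295), mostly in experiment 1, and without its minus Pi 24 h array the adjusted p was 0.165.

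For 4 of the 15 rises the spread of the 0 h levels between experiments was the widest in both arms (SD 1.71 to 1.92 without and 1.94 to 2.43 with Pi). These were AT2G30670, AT5G38910, AT3G18250 and the chitinase gene ChiC. In minus Pi roots at 0 h they stood between 3.94 and 6.10 in experiments 1 and 2 and between 6.98 and 9.22 in experiment 3. With Pi they stood at 0 h between 6.77 and 9.74 in experiments 2 and 3. The 0 h levels of NAC6, Rap2.6L, CEP1, G3Pp1 and ASN1 also increased from experiment 1 to experiment 3 in both arms, with a smaller SD. AT2G30670 rose by 3.51 in minus Pi roots (SE 0.66, adjusted p = 0.00281) and changed by -0.80 in plus Pi roots, where the fall lay in experiment 2, so that its difference between the arms of 4.31 (adjusted p = 0.028) exceeds its rise. AT5G38910 rose by 2.90 (adjusted p = 0.0151), AT3G18250 by 2.35 (adjusted p = 0.0289) and ChiC by 2.27 (adjusted p = 0.0449). No call was made for AT2G30670, AT5G38910, AT3G18250 or ChiC without the term for the experiment (adjusted p = 0.216 to 0.44). Leaving out the minus Pi 0 h array of experiment 2 gave adjusted p = 0.0931, 0.159 and 0.241 for AT5G38910, AT3G18250 and ChiC.

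Of the 10 genes with the smallest adjusted p for the difference between the arms, CEP1, SPX1 and EXLB1 were also among the largest rises. The other 7 had smaller changes, with SE from 0.09 to 0.23 once the term for the experiment was fitted. ROPGEF14, an activator of ROP GTPases, stood at 5.81, 6.06 and 5.80 at 0 h and at 6.88, 7.08 and 6.98 at 24 h in minus Pi roots, and between 6.13 and 6.24 in all 6 plus Pi arrays. Its rise of 1.09 (SE 0.09, adjusted p = 1.49e-06) was 1.14 more than in plus Pi roots (adjusted p = 0.000802). BGLU25, a beta-glucosidase gene, rose by 1.72 (SE 0.14, adjusted p = 1.71e-06) from 8.05, 8.56 and 8.45 to 9.76, 9.83 and 10.63, and the arms differed by 1.71 (adjusted p = 0.000914). WRKY28, a transcription factor gene of defence, rose by 1.97 (SE 0.23, adjusted p = 5.42e-05), and the arms differed by 2.14 (adjusted p = 0.00687). Its minus Pi 0 h arrays were spread between experiments, at 3.98, 4.34 and 5.37. Without the term for the experiment neither its rise nor its difference was called (adjusted p = 0.0623 and 0.486). The aspartic protease gene NANA, the defence gene EPS1 and AT5G64110 rose by 1.21, 0.86 and 1.43, with differences between the arms of 1.55, 1.11 and 1.42 (adjusted p = 0.00211, 0.00386 and 0.000802). AT3G54270 was the 1 fall among the 10, by 0.70 on the log2 scale, with a difference of -1.08 (adjusted p = 0.000914). That difference includes a change of 0.37 in plus Pi roots (adjusted p = 0.0638), and at 0 h AT3G54270 stood 0.47 higher in minus Pi roots. Of the 38 named genes whose change differed between the arms, 13 kept that call without any single array of the 12, among them SPX1, CEP1, EXLB1, SQD1, PIP2;4 and the 10 genes with the smallest adjusted p. Without the term for the experiment 7 of the 38 kept it.

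The largest falls were shared by both arms. AT4G27654 stood at 8.89, 9.40 and 8.76 at 0 h and at 4.22, 4.38 and 4.64 at 24 h in minus Pi roots, and at 8.51, 7.97 and 8.17 and then 4.20, 4.49 and 4.56 in plus Pi roots. In each arm the times were far apart, and the 24 h levels of both arms overlapped. It fell by 4.61 on the log2 scale in minus Pi roots (SE 0.31, adjusted p = 7.49e-07), or 24.4-fold, and the change differed from that in plus Pi roots by -0.81 (adjusted p = 0.377). TCH4, the touch-induced xyloglucan-modifying enzyme, stood at 10.94, 9.89 and 10.38 at 0 h and at 6.47, 6.40 and 6.89 at 24 h, a fall of 3.81 on the log2 scale (SE 0.40, adjusted p = 1.9e-05), or 14.1-fold. With Pi, TCH4 fell by 4.26 on the log2 scale (adjusted p = 1.35e-05), and the difference between the arms was 0.45 (adjusted p = 0.757). The arms took different paths to that end. In minus Pi roots TCH4 stood at 11.99 ± 0.0133 at 1 h and 10.22 ± 0.661 at 6 h, in plus Pi roots at 6.83 ± 0.163 and 6.33 ± 1.00 (SD, n = 3).

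Other large falls held transcription factors of rapid stress responses. RRTF1, an ERF gene of redox responses, fell from 8.02, 7.55 and 7.42 to 4.11, 4.33 and 4.25, a change of -3.44 (SE 0.26, adjusted p = 1.12e-06). The zinc finger gene STZ, MYB77, ERF104 and the ERF gene AT5G51190 fell too, with changes of -3.17, -3.01, -2.82 and -3.45. CAF1a, a subunit of the deadenylase that shortens mRNA tails, fell by 3.18 (adjusted p = 1.71e-06), and DIC2, a mitochondrial dicarboxylate carrier, fell by 3.31 on the log2 scale (adjusted p = 4.82e-06). CYCP3;2, a P-type cyclin gene, fell by 2.86 on the log2 scale, and AT4G29780, AT4G27652, AT1G15010 and AT1G05575 changed by -4.08, -3.80, -3.15 and -2.85. These genes also fell in plus Pi roots, each with an adjusted p between 1.05e-06 and 0.0422, and none had a difference between the arms past the threshold (adjusted p = 0.18 to 0.944). Of the 15 largest falls only IRT1 was not called in plus Pi roots.

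In the list of 24 measured touch and rapid stress genes, 21 fell and none rose in minus Pi roots, against 5.61% of all probe sets that fell, and in 21 the 0 h and 24 h arrays did not overlap, against 18.7%. With Pi 19 of them fell, against 0.945% of all probe sets. The list medians were -1.94 in minus Pi and -2.0 in plus Pi roots, and no member had a difference between the arms past the threshold. Its median level on an array lay between 8.93 and 9.52 at 0 h, between 8.44 and 8.64 at 1 h, between 7.64 and 8.12 at 6 h and between 6.44 and 7.16 at 24 h in minus Pi roots. Fewer members fell without the term for the experiment (15) or without experiment 2 (13).

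**Figure D3:**
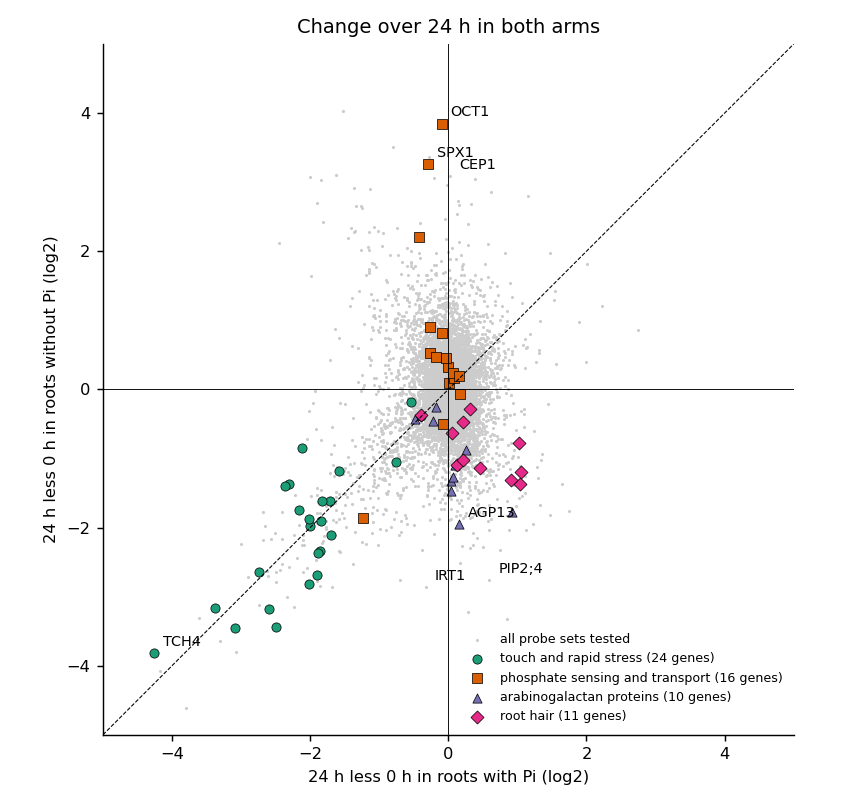
Change from 0 h to 24 h in plus Pi roots (x axis, log2) against that in minus Pi roots (y axis, log2) for all 22746 probe sets in grey, with 4 gene lists coloured and equal change on the dashed line. Touch and rapid stress genes lie along the dashed line, while all arabinogalactan and root hair genes lie below 0 on the y axis, with medians of 0.06 and 0.32 on the x axis.

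Many genes of the cell wall also fell without Pi. Of 10 measured arabinogalactan protein genes, which encode heavily glycosylated proteins of the cell surface, 9 fell and none rose, against 5.61% of all probe sets that fell. Their median change was -1.18 in minus Pi and 0.06 in plus Pi roots, and 7 had a lower change in minus Pi roots by the test of the difference, against 1.1% of all probe sets. AGP13 stood at 11.10, 11.08 and 10.48 at 0 h and at 9.88, 8.41 and 8.51 at 24 h, with no overlap. It fell by 1.95 on the log2 scale (SE 0.28, adjusted p = 0.00031), and the arms differed by -2.10 (adjusted p = 0.0147). At 6 h AGP13 had stood at 6.46 ± 0.215 (SD, n = 3), below its level of 8.93 ± 0.821 at 24 h, and the median level of the list had its lowest range there, 8.52 to 9.09 against 9.98 to 10.77 at 24 h. AGP4 and AGP22 fell by 1.33 and 1.47 on the log2 scale (adjusted p = 0.00051 and 0.00143). AGP3 fell by 1.77 on the log2 scale (adjusted p = 0.0223), and without the minus Pi 24 h array of experiment 2 its adjusted p was 0.151. Of the 10 genes 5 fell without the term for the experiment, 6 fell without that array, and none fell without experiment 2 as a whole. The difference between the arms lost its call without any of 3 of the 12 arrays for AGP13, 6 for AGP4, 9 for AGP3 and 10 for AGP22. Without the term for the experiment none of these named genes kept it (adjusted p = 0.216 to 0.504).

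Of 20 measured xyloglucan-modifying enzyme genes, which cut and rejoin wall xyloglucan, 10 fell and none rose, against 5.61% of all probe sets that fell. The list median was -0.97 in minus Pi and 0.05 in plus Pi roots, and 1 of the 20 genes had a lower change in minus Pi roots by the test of the difference. XTH16 stood at 9.01, 8.95 and 7.92 at 0 h and at 7.48, 6.59 and 6.14 at 24 h. The lowest 0 h array, of experiment 3, lay above the highest 24 h array, and XTH16 fell by 1.89 on the log2 scale (SE 0.28, adjusted p = 0.000482). Its change in plus Pi roots was 0.01 (adjusted p of the difference 0.0261). XTR6 (XTH23 in the list) fell by 1.99 in minus Pi roots (adjusted p = 0.000272) and by 1.77 on the log2 scale in plus Pi roots (adjusted p = 0.00216). TCH4 is counted among the 10 as well as in the touch and rapid stress list. TCH4 and XTR6 were the 2 genes of the list called as falls in plus Pi roots. XTH12 fell by 1.85 on the log2 scale (adjusted p = 0.00618), with adjusted p = 0.0545 without the minus Pi 24 h array of experiment 2. The count was 6 of 20 without the term for the experiment, and also 6 without that array. Among 11 expansin genes, whose products loosen walls, 4 fell and 1 rose. The riser was EXLB1. The expansin-like genes EXLA3 and EXLA1 changed by -2.19 and -1.89 in minus Pi roots and by -1.82 and -1.67 in plus Pi roots, called in both, and these 2 were the falls left without the term for the experiment or without the minus Pi 24 h array of experiment 2.

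Root hair genes had a median change of -1.02 in minus Pi and 0.32 in plus Pi roots, with 8 of 11 measured genes lower and none higher, against 5.61% of all probe sets lower. At 0 h the list median of minus Pi less plus Pi roots was already 0.56. The test of the difference between the arms passed for 3 of the 11. The calls were fragile. None was made without the term for the experiment, with only the 6 arrays in the fit, or without the minus Pi 0 h or 24 h array of experiment 2. The median changes of the list were -0.81, -1.66 and -0.44 in experiments 1 to 3. PRP3, a proline-rich wall protein gene of root hairs, stood at 9.81, 9.46 and 8.34 at 0 h and at 9.0, 6.91 and 7.56 at 24 h in minus Pi roots, so that the groups overlapped. With Pi it stood at 9.25, 7.4 and 6.38 at 0 h and at 9.37, 8.86 and 7.88 at 24 h. PRP3 fell by 1.37 on the log2 scale (SE 0.40, adjusted p = 0.0378), and its difference between the arms of -2.40 (adjusted p = 0.0413) includes a change of 1.03 in plus Pi roots (adjusted p = 0.541). The peroxidase gene RHS19 and SHV2, a COBRA-like gene needed for hair growth, fell by 1.31 and 1.09 on the log2 scale (adjusted p = 0.0437 and 0.0164). EXPA18, a root hair expansin, fell by 1.15 on the log2 scale (adjusted p = 0.0123). Each of PRP3, RHS19, SHV2 and EXPA18 lost its call without the minus Pi 24 h array of experiment 2 (adjusted p = 0.223, 0.223, 0.117 and 0.0885). In whole roots, fewer cells of a type and less RNA per cell cannot be told apart.

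Among other structural genes, 4 of 9 measured tubulin genes and 4 of 14 xylem wall genes fell, against 5.61% of all probe sets, and none rose. TUB1 fell by 1.59 (SE 0.32, adjusted p = 0.00416) from 10.25, 10.21 and 9.71 to 8.77, 8.44 and 8.20, and stood at 6.56 ± 0.661 at 6 h. TUB5, TUB8 and TUB4 fell by 1.05, 0.78 and 0.54 on the log2 scale, and these 3 had a difference between the arms past the threshold (adjusted p = 0.0169, 0.0186 and 0.0407). IRX15-L, a gene of xylan synthesis, fell by 0.80 (adjusted p = 0.00369), and the fasciclin-like FLA12 and FLA11 by 0.79 and 0.75 on the log2 scale (adjusted p = 0.0147 and 0.0083). IRX6, a COBRA-like gene of the secondary wall, fell by 0.58 on the log2 scale (adjusted p = 0.0376). The xylem list had a median of -0.40, and 13 of its 14 genes had a difference below 0. FLA12 was not called without the minus Pi 24 h array of experiment 2 (adjusted p = 0.104), and without the term for the experiment 1 tubulin gene and 1 xylem gene fell. Of 8 cell division genes none passed, with differences from 0.14 to 0.55.

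Some water channel genes fell as well. PIP2;4, a plasma membrane aquaporin of roots, stood at 11.47, 11.34 and 9.92 at 0 h and at 9.02, 7.61 and 7.81 at 24 h in minus Pi roots. The 0 h array of experiment 3 was low, yet above every 24 h array. With Pi it stood at 11.20, 10.20 and 8.63 at 0 h and at 11.23, 10.89 and 9.69 at 24 h, lowest in experiment 3 at both times. The fall of 2.76 on the log2 scale (SE 0.37, adjusted p = 0.000167), or 6.79-fold, differed from the change in plus Pi roots by -3.36 (adjusted p = 0.00687). PIP1;5 and TIP2;3, a tonoplast channel, fell by 1.20 and 1.13 on the log2 scale (adjusted p = 0.00104 and 0.01), so that 3 of 7 aquaporin genes fell, against 5.61% of all probe sets. None of PIP2;4, PIP1;5 and TIP2;3 was called without the term for the experiment (adjusted p = 0.0559, 0.229 and 0.0765).

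Of 13 measured genes of suberin and the Casparian strip, 2 fell and 2 rose. CASP4, a scaffold protein of the Casparian strip, fell by 1.43 (SE 0.26, adjusted p = 0.002) from 7.69, 7.30 and 7.04 to 6.32, 5.70 and 5.72, and PER64, the peroxidase of the strip's lignin, fell by 1.1 on the log2 scale (adjusted p = 0.0141). FAR1 and FAR4, fatty acyl reductases of suberin, rose by 1.45 and 1.26 (adjusted p = 0.0227 and 0.0183). The remaining 9 genes did not pass. None of the 4 calls was made without the term for the experiment, and without the minus Pi 0 h array of experiment 2 the adjusted p was 0.147 for FAR1, 0.101 for FAR4 and 0.088 for PER64. Of 8 glutathione transferase genes of the tau class GSTU26 and GSTU28 fell, with changes of -1.79 and -1.57 (adjusted p = 0.00465 and 0.000167), and GSTU20 rose by 1.21 (adjusted p = 0.0209, or 0.123 without the minus Pi 24 h array of experiment 1).

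**Figure D4:**
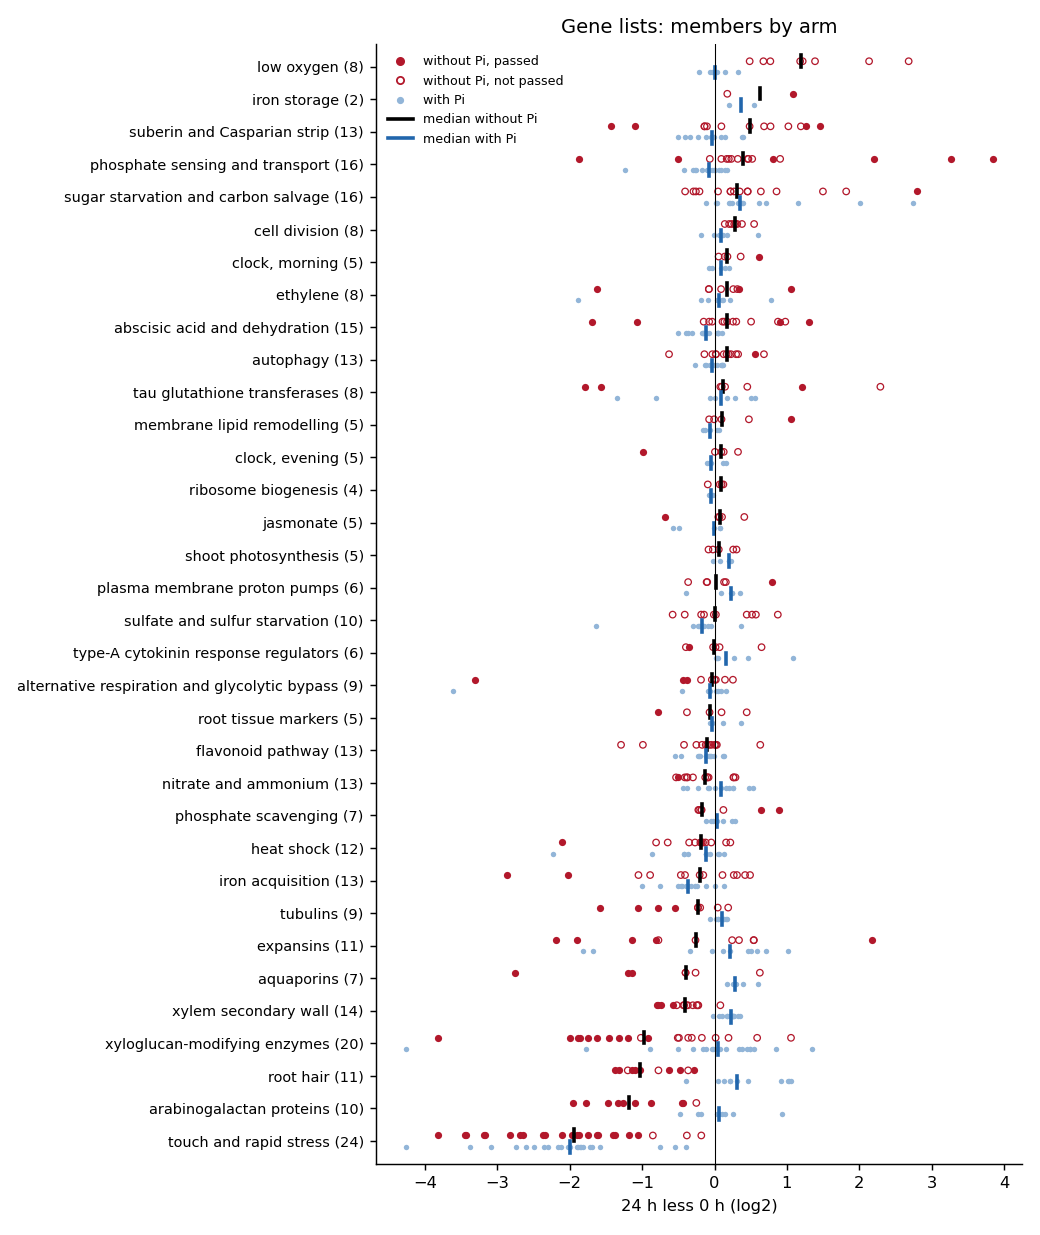
Change from 0 h to 24 h (x axis, log2) of the measured genes of 34 lists (y axis, number measured in brackets), sorted by the median in minus Pi roots. Red circles are minus Pi roots, filled where adjusted p was under 0.05, blue dots are plus Pi roots, and black and blue bars are medians. The touch and rapid stress list is lowest in both arms, and the arabinogalactan and root hair lists have medians of -1.18 and -1.02 in minus Pi roots.

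Of 13 measured iron acquisition genes 2 fell and none rose, and of 2 iron storage genes 1 rose. IRT1, the main root iron uptake transporter, stood at 4.56, 5.95 and 9.34 at 0 h and at 3.55, 4.03 and 3.67 at 24 h in minus Pi roots. The 0 h arrays were widely spread, the 24 h arrays were all low, and the groups did not overlap. IRT1 fell by 2.87 on the log2 scale (SE 0.85, adjusted p = 0.0396), with a change of -5.67 in experiment 3 and of -1.01 in experiment 1. With Pi it stood between 6.78 and 8.41 at both times, and the difference between the arms of -2.54 did not pass (adjusted p = 0.293). Leaving out any of 4 arrays ended the call, and the value was -1.81 (adjusted p = 0.192) without the minus Pi 0 h array of experiment 3. The iron deficiency regulator bHLH39 fell by 2.02 on the log2 scale (adjusted p = 0.0155, or 0.0846 without that array), and the other 11 acquisition genes did not pass. FER1, an iron storage ferritin, stood at 9.87, 10.24 and 9.43 at 0 h and at 10.96, 10.78 and 11.07 at 24 h. It rose by 1.09 (SE 0.28, adjusted p = 0.0187), after 12.38 ± 0.158 at 6 h, and was not called without the minus Pi 24 h array of experiment 3 (adjusted p = 0.0871). FER1 changed by 0.54 in plus Pi roots (adjusted p = 0.786), and the arms differed by 0.55 (adjusted p = 0.533). No iron gene was called without the term for the experiment.

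For sulfur and nitrogen nutrition few changes were detected. None of 10 sulfate genes passed, with differences from -0.58 to 0.87. Of 13 nitrate and ammonium genes only GS2, the plastid glutamine synthetase, passed, with a fall of 0.50 on the log2 scale (adjusted p = 0.0254, or 0.119 without the minus Pi 0 h array of experiment 1). Of 6 proton pump genes only HA4 passed, with a rise of 0.80 (adjusted p = 0.0336, or 0.178 without the minus Pi 24 h array of experiment 1).

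Of 16 genes of sugar starvation and carbon salvage, 1 rose. ASN1 stood at 5.47, 7.48 and 8.23 at 0 h and at 9.67, 9.63 and 10.29 at 24 h in minus Pi roots. The 24 h arrays lay above all 0 h arrays, and the rise of 2.80 (SE 0.79, adjusted p = 0.0308) was 4.21 in experiment 1 and 2.05 in experiment 3. Without the minus Pi 0 h array of experiment 1 it was 1.86 (adjusted p = 0.179), and the difference from plus Pi roots was 1.65 (adjusted p = 0.498). ASN1 had stood at 11.50 ± 0.973 at 6 h. ICL, the isocitrate lyase of the glyoxylate cycle, stood at 8.85 ± 0.297 at 6 h and was back at 5.23 ± 0.321 at 24 h, against 5.01 ± 0.335 at 0 h (difference 0.22, adjusted p = 0.473). Of 13 autophagy genes only ATG8D passed, with a rise of 0.56 (adjusted p = 0.0145) that was not called without the term for the experiment (adjusted p = 0.464). Of 9 genes of alternative respiration and glycolytic bypass 3 fell. Beside DIC2 these were the phosphofructokinase subunit AT1G76550, by 0.43 on the log2 scale (adjusted p = 0.00559), and the NAD(P)H dehydrogenase NDB1, by 0.38 (adjusted p = 0.0251, or 0.109 without the minus Pi 0 h array of experiment 1).

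Hormone genes moved in small numbers. Of 8 ethylene genes EBF2 and CTR1, negative regulators of ethylene signalling, rose by 1.06 and 0.34 (adjusted p = 0.00448 and 0.0247), and ERF2 fell by 1.63 on the log2 scale (adjusted p = 0.00956). EBF2 changed by 0.77 in plus Pi roots (adjusted p = 0.137), and its difference between the arms was 0.28 (adjusted p = 0.706). CTR1 lost its call without the minus Pi 24 h array of experiment 2 (adjusted p = 0.141), and ERF2 also fell in plus Pi roots, by 1.89 on the log2 scale (adjusted p = 0.0136). Among 15 genes of abscisic acid and dehydration, RD22 and the NAC factor gene RD26 rose by 1.31 and 0.90 (adjusted p = 0.00162 and 0.00299), with differences from plus Pi roots of 1.70 and 1.01 (adjusted p = 0.0158 and 0.0425). These differences lost their call without any of 2 of the 12 arrays for RD22 and any of 10 for RD26. Neither was called without the term for the experiment (adjusted p = 0.496 and 0.299). CYP707A3, which breaks down abscisic acid, fell by 1.69 on the log2 scale (adjusted p = 0.000322), and the dehydrin gene COR47 fell by 1.07 (adjusted p = 0.0218, or 0.0951 without the minus Pi 24 h array of experiment 1). AOS, of jasmonate synthesis, fell by 0.68 in minus Pi roots (adjusted p = 0.000554) and by 0.49 on the log2 scale in plus Pi roots (adjusted p = 0.025). Of 6 type-A response regulators of cytokinin ARR15 fell by 0.35 on the log2 scale (adjusted p = 0.0484, or 0.267 without the minus Pi 0 h array of experiment 1). DREB2A was the only 1 of 12 heat shock genes to pass, with falls of 2.11 in minus Pi and 2.23 on the log2 scale in plus Pi roots. None of 13 flavonoid and 4 ribosome biogenesis genes passed.

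Clock genes gave a check of the matched hour of day. TOC1, an evening gene, stood at 7.45, 7.71 and 7.95 at 0 h and at 7.53, 7.96 and 7.90 at 24 h, with overlapping groups and a difference of 0.09 (SE 0.15, adjusted p = 0.746). At 6 h it stood at 9.09 ± 0.101. Of 10 measured clock genes, 5 of the morning and 5 of the evening, 2 passed. The morning gene RVE1 rose by 0.62 (adjusted p = 0.0151, or 0.0843 without the minus Pi 0 h array of experiment 2), and TCP11 (CHE in the list) fell by 0.99 on the log2 scale (adjusted p = 0.00049).

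Genes of low oxygen stress had a median change of 1.20 in minus Pi and 0.01 in plus Pi roots, yet none of 8 measured genes passed. They are named here after their values were seen. The sucrose synthase gene SUS4 stood at 6.87, 7.07 and 8.18 at 0 h and at 10.65, 8.53 and 9.34 at 24 h (difference 2.14, SE 0.67, adjusted p = 0.0518). The pyruvate decarboxylase gene PDC1 (AT4G33070) stood at 5.37, 4.08 and 6.84 at 0 h and at 10.86, 5.72 and 7.75 at 24 h (difference 2.68, adjusted p = 0.101). The minus Pi 24 h array of experiment 1 was highest of all 24 h arrays for each of the 8 genes. The list medians of the within-experiment changes were 2.19, 0.69 and 0.44 in experiments 1 to 3.

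**Figure D5:**
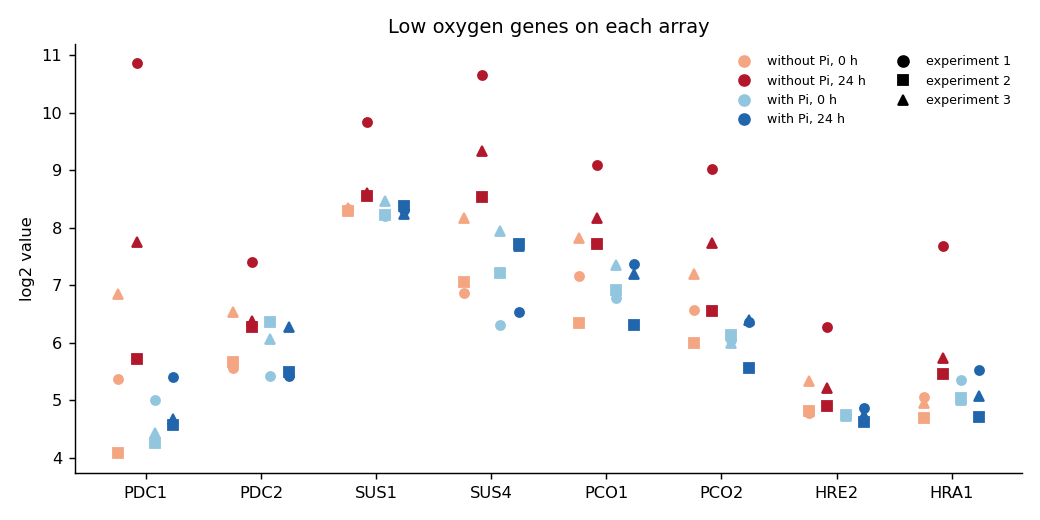
Log2 level on each array (y axis) of the 8 measured genes of low oxygen stress (x axis). Light and dark red are minus Pi roots at 0 h and 24 h, light and dark blue plus Pi roots, and circles, squares and triangles are experiments 1, 2 and 3. The dark red circle, the minus Pi 24 h array of experiment 1, is the highest point for each gene.

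Marker genes were compared with the label of root tissue. Of 12 listed root markers 5 were measured, and their median level on an array lay between 8.17 and 8.65 at 0 h and between 8.17 and 8.74 at 24 h in minus Pi roots. PYK10, a beta-glucosidase abundant in roots, stood at 11.28 to 12.48 over the 6 arrays (named after its values were seen). MYB66 (WER in the list), the factor that sets the fate of hairless epidermal cells, fell by 0.78 on the log2 scale (SE 0.18, adjusted p = 0.0106) beside the root hair genes, and was not called without the minus Pi 0 h array of experiment 1 (adjusted p = 0.0666). The part of this change in the root hair result was not tested. Of 17 listed leaf photosynthesis genes 5 were measured, none passed, and their median level lay between 5.33 and 5.48 at 0 h and between 5.22 and 5.58 at 24 h.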

How the data were processed

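Root RNA was hybridised to 24 one-colour Affymetrix arrays, 3 for each of 8 groups of time and Pi supply. The authors deposited log2 values per probe set. How probes were summarised and arrays normalized was stated in none of the sources, and the submitters' processing notes name limma. The deposited log2 fold columns served only to check the scale, and group mean differences departed from them by at most 1.0e-06. Control probe sets (64) were removed. Genes came from the deposited locus column (9395 probe sets) or from the array's annotation in GEO (7737), which may be outdated, with symbols from NCBI's table for TAIR10.1. A further 672 probe sets named several genes and 4942 were unnamed here.

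With limma 3.58.1 (R 4.3.3, statmod 1.5.0), 8 group means and the experiment number as a fixed block entered 1 model of all 24 arrays (14 residual degrees of freedom), and p-values were Benjamini-Hochberg adjusted over 22746 probe sets. The labels number the runs of the whole experiment, which pairs the arrays, and deviations of same-numbered minus Pi arrays at 0 h and 24 h correlated with r of 0.742, 0.229 and 0.661. Differently numbered arrays gave r of -0.674 to 0.379, a range that holds the value of experiment 2 (0.229). The deviations are from the mean of 3 arrays and sum to 0, so this range is no independent baseline for the pairing. The fixed block removes level differences between the 3 runs, so p-values rest on the spread left within groups, pooled over all 24 arrays. Nothing says that the runs used separate plant batches, so this spread may be technical. The fit was also tried on simulated data with independent noise and no differences between experiments. That simulation could not check the term for the experiment.

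The comparison, the 34 gene lists (622 genes, of which 332 were measured) and the rule for named genes were chosen with earlier results of these data known. A gene was represented by its probe set with the highest mean. The rule named the 15 largest rises and falls with 1 gene and 1 sign in 3 pairs, the 10 smallest adjusted p of the difference between the arms, up to 4 passing genes per list, and 10 set genes.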

Additional observations from a re-analysis of the deposited data

Results flagged for a closer look

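The change from 0 h to 24 h differed between the arms for 440 probe sets by the test of the difference itself. In the genes named above the difference, as the change without Pi less the change with Pi on the log2 scale, was highest for AT2G30670 (4.31), AT5G38910 (4.04), OCT1 (3.95), SPX1 (3.56) and CEP1 (3.06). Leaving out any of 7 of the 12 arrays ended the call of the difference for AT2G30670, any of 10 for AT5G38910 (adjusted p = 0.0499 with all arrays) and any of 4 for OCT1. No single array ended it for SPX1 or CEP1. The values of AT2G30670 and AT5G38910 include changes of -0.80 and -1.14 in plus Pi roots. Without the term for the experiment neither difference was called (adjusted p = 0.635 and 0.644). The difference was 2.59 for NAC6, 2.2 for EXLB1, 2.14 for WRKY28, 1.81 for JRG21, 1.71 for BGLU25, 1.7 for RD22 and 1.55 for NANA. Smaller positive differences were 1.42 for AT5G64110, 1.14 for ROPGEF14, 1.11 for EPS1, 1.03 for SQD1, 1.01 for RD26, 0.83 for ATG8D and 0.76 for AT1G13750.

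Among genes with a lower change without Pi, the difference was -3.36 for PIP2;4 and -1.48 for PIP1;5, both aquaporins. Wall and surface protein genes were at -2.7 (AGP3), -2.1 (AGP13), -1.51 (AGP22), -1.37 (AGP4), -1.9 (XTH16), -1.06 (IRX15-L) and -1.13 (FLA12). The value of AGP3 includes a change of 0.93 in plus Pi roots (adjusted p = 0.772), and at 0 h AGP3 stood 1.39 higher in minus Pi roots. Root hair genes were at -2.4 (PRP3) and -1.6 (EXPA18), and CASP4 of the Casparian strip at -1.81. At 0 h PRP3, EXPA18, CASP4 and PIP2;4 stood 1.52, 0.82, 0.56 and 0.90 higher in minus Pi roots. Their values include changes of 1.03, 0.46, 0.38 and 0.59 in plus Pi roots, none of them called. Leaving out any of 9 of the 12 arrays ended the call of the difference for PRP3 and for EXPA18, and any of 5 for CASP4. No single array ended it for PIP2;4. Tubulin genes were at -1.18 (TUB5), -0.96 (TUB8) and -0.59 (TUB4). The glutathione transferase genes GSTU26 and GSTU28 were at -2.3 and -1.85, TCP11 at -0.89 and AT3G54270 at -1.08. Of these 38 genes 25 passed with the experiment as a random effect, 7 passed without a term for it, and 13 passed when any 1 of the 12 arrays was left out.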

How the results depend on the processing

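The experiment numbers pair the arrays, and the fit without that replicate block called 629 probe sets in minus Pi roots in place of 2383, 113 in place of 230 in plus Pi roots, 29 in place of 440 for the difference between the arms, and 43 in place of 101 members of the gene lists. With only the arrays of a contrast in the fit the counts were 1314 in minus Pi roots, 0 in plus Pi roots by limma (1632 with unadjusted p under 0.05) and 673 for the difference. A random block gave 267 for the difference. Leaving out the 3 arrays numbered out of run gave 1180 in minus Pi roots and 156 for the difference. A limit of at least 2-fold left 671, 138 and 282. Leaving out 1 experiment or 1 array of the groups compared gave 411 to 2062 calls in minus Pi roots, 42 to 285 in plus Pi roots, 2 to 621 for the difference and 34 to 99 list members, each lowest without experiment 2. Median centring, quantile normalization and the filter on low values kept each of these counts within 1.5 times. At 0 h the count between the arms was 0 in all settings, with 301 to 1678 unadjusted p under 0.05.

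Of 92 named genes called in minus Pi roots, 28 were called in all 16 settings, 50 lost the call without the block, 49 without experiment 2 and 0 under median centring or quantile normalization. The filter left ARR15 untested and ended the call of none of the others. The causes were not tested. Among genes that were not called, ICL ranged from -0.0097 without replicate 2 to 0.3584, and TOC1 from -0.032 without the arrays out of run to 0.1846, with -0.0174 without the minus Pi 24 h array of replicate 2. The counts of list members under settings other than the block and the probe set rule were chosen after seeing the data. Within 3 arrays a group, changes with wide 0 h spreads, such as that of IRT1, were at the limit of detection.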

Other observations

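The values here were chosen after they were seen. Of the suberin genes, CYP86B1, ABCG6 and ABCG20 stood higher in the minus Pi 24 h array of experiment 1 than in the other 24 h arrays of that arm, while FAR1 was lowest there (8.07 against 9.14 and 8.95). The hydroxylase gene CYP86B1 stood at 5.29, 5.63 and 5.73 at 0 h and at 7.55, 5.38 and 5.78 at 24 h in experiments 1 to 3. The transporter gene ABCG6 stood at 6.29, 6.61 and 7.32 and then at 9.07, 6.89 and 7.33, and ABCG20, of the same transporter group, at 5.92, 6.24 and 6.39 and then at 8.19, 6.13 and 6.53. The same array was highest for the 8 genes of low oxygen stress.

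The glutathione transferase gene GSTU22 stood at 5.43, 5.62 and 9.78 at 0 h and at 8.92, 9.40 and 9.38 at 24 h in minus Pi roots, and at 5.95, 9.58 and 10.20 and then 5.86, 6.52 and 9.31 in plus Pi roots. Its change in minus Pi roots was 2.29 (adjusted p = 0.0665), and its difference between the arms was 3.64 (adjusted p = 0.0887). The sulfur starvation gene LSU1 stood at 3.88, 3.63 and 6.10 at 0 h in minus Pi roots and at 3.94, 5.90 and 7.89 in plus Pi roots. At 24 h it stood at 4.28, 5.74 and 6.21 without Pi and at 3.84, 3.92 and 5.07 with Pi.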
